A study of Mus musculus with 24 samples.

Results

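The genes described here encode collagen chains, laminin chains, nidogen 1, perlecan (Hspg2), fibronectin (Fn1) and Sparc, the main structural proteins of the extracellular matrix. They were taken by name, and the set was chosen with earlier results of these data known. It holds every symbol of the collagen chain or laminin chain pattern, plus Nid1, Nid2, Fn1, Hspg2 and Sparc. Of 17097 genes with a probe set that names 1 gene, 54 were members, each read from its brightest probe set. The probe sets of 38 members had a mean of at least 6.27 on the log2 scale and were tested with 11844 genes in all. The other 16 members lay below that level and are given by their ranges only. Lama4, Lama5, Nid2, Col21a1, Col28a1 and Col6a6 are not analysed here.

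The arrays measured messenger RNA in the neural fraction, by the labels' name, of the stroma of tumours. The tumours were orthotopic xenografts of SCC25, a human oral squamous carcinoma cell line, grown in NSG mice, an immunodeficient strain that all groups share. The tumours carried a hairpin against EGR2 (shEGR2_40.9 or shEGR2_38.9), a hairpin against GAL (shGAL), or the non-targeting hairpin PLKO, and the mice were fed a diet rich in palmitic acid (the PA-rich diet) or a control diet. The 8 groups were thus shEGR2_40.9, shEGR2_38.9, shGAL and PLKO, each on the PA-rich and on the control diet, with 3 arrays per group. The series calls the 3 arrays technical replicates, so the p-values measure only the spread between arrays, and how many animals stand behind a group is not stated. The age of the mice and the way the neural fraction was separated are not given in the sources used here.

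Collagens are triple helices of 3 chains. Fibrillar collagens (types I, II, III, V and XXVII among the genes tested) build the tensile fibres of connective tissue and are made mainly by fibroblasts. Basement membranes are thin sheets under epithelia and around vessels, nerves and muscle, built from a laminin network and a collagen IV network that nidogen and perlecan link, with collagens XV and XVIII at their edge. In peripheral nerve each Schwann cell and axon unit is wrapped in such a sheet, and the endoneurium around it holds collagens I and III.

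All values are log2 RMA values, in which a difference of 1 is a doubling of the signal, and a change is always the value on the PA-rich diet minus that on the control diet, or the value with a targeting hairpin minus that with PLKO. A change passed when its adjusted p was under 0.05 in limma, over all genes tested. The arrays were scanned in 6 batches of 4, and same-numbered arrays of the 2 diets of a hairpin shared a batch. One array stood apart, shEGR2_38.9 control-diet replicate 3, whose mean was 7.09 (7.15 to 7.17 in the other arrays) and whose Gapdh probe sets differed by 0.76 between the 3′ and 5′ end (-0.12 to 0.08 in the others). Counts without it are given below. Of 10 Schwann and glial markers measured, 6 were above the level for testing (Sox10 group means 7.44 to 7.57, Erbb3 10.66 to 11.3), and S100b, Mag, Gfap and Foxd3 were below it. Keratinocyte genes were bright in every group, with Krt14 at 13.14 to 13.22. Whether human tumour RNA bound to the mouse probe sets was not tested for any gene. This limits what the keratins and the epithelial laminins Lama3 and Lamb3 show of the mouse cells. The same limit holds for other bright genes, such as Col17a1, Col7a1 and Erbb3. The Egr2 probe set was designed for the mouse gene, and its group means of 10.89 to 11.83 do not check silencing in the human tumour cells.

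On the PA-rich diet a set of basement membrane genes, fibronectin and a few further collagens fell with both EGR2 hairpins, and they did not pass with PLKO or shGAL. With shEGR2_40.9, 10 members fell and 1 rose of 38, against 8.95% of all genes tested that passed in either direction, 5.22% that fell and 3.73% that rose. With shEGR2_38.9, 15 fell and 5 rose, against 22.1% of all genes in either direction, 8.3% lower and 13.8% higher. All 10 members that fell with shEGR2_40.9 also fell with shEGR2_38.9, which is 100% of the first list and 66.7% of the second. The same overlap over all genes tested is not given here. The 2 comparisons have no array in common, but the model gave each gene a spread shared by all groups. Their calls are therefore not fully independent. With PLKO 1 member rose and 0 fell, where 1.18% of all genes passed. With shGAL limma called 0 members (6 at an unadjusted p under 0.05, lowest adjusted p 0.125), where 1.94% of all genes passed. Without the array that stood apart the counts were 13 lower and 2 higher with shEGR2_40.9, 13 lower and 4 higher with shEGR2_38.9, and the same with PLKO and shGAL. The shares of all genes above are from the fit with all arrays, and those without that array are not given here. The median change over the 38 members was -0.12 with shEGR2_40.9 and -0.15 with shEGR2_38.9, against 0.03 and 0.07 over all genes tested.

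The array values can also be read without a test. With shEGR2_40.9 every PA-rich array lay below every control-diet array in 15 members (13.8% of all genes) and above in 4 (17.4%). With shEGR2_38.9 this held for 16 members below (11% of all genes) and 7 above (23.6%). With shGAL 8 members lay below (10.2%) and 4 above (11%), and with PLKO 0 lay below (10.3%) and 9 above (10.6%). The members' share below thus exceeded the share of all genes with both EGR2 hairpins and with shGAL, and the share above exceeded it with PLKO.

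**Figure D1:**
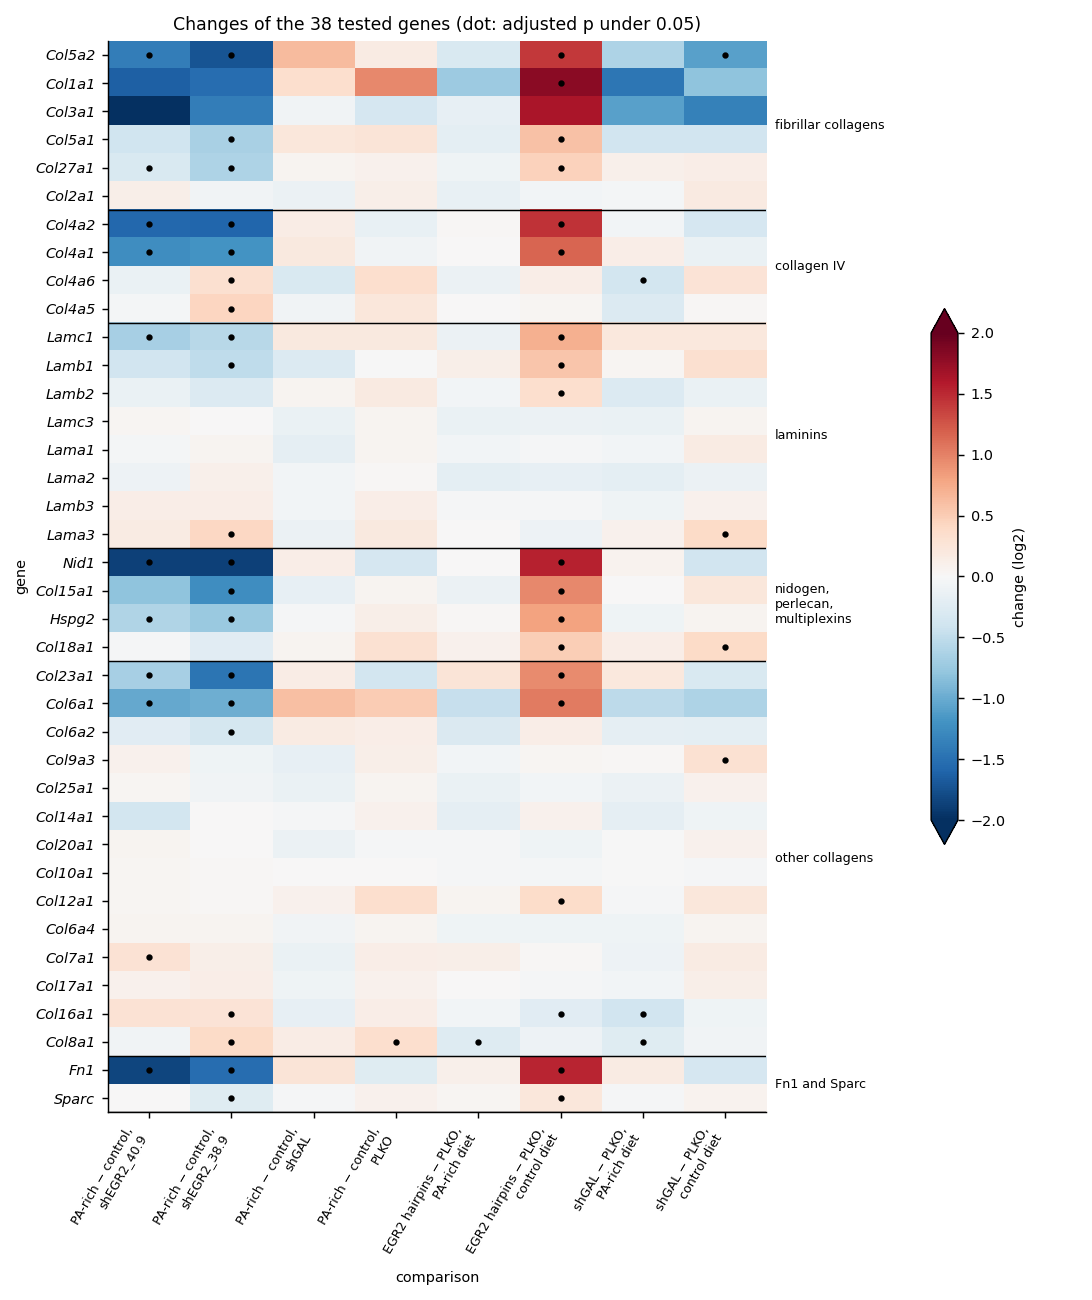
Changes (log2, colour) of the 38 tested genes (rows, by class) in 4 diet comparisons and 4 comparisons with PLKO (columns). Dots mark an adjusted p under 0.05, and colours end at 2 in either direction. The dots of falling genes gather in the 2 EGR2 hairpin diet columns, and those of rising genes in the column of EGR2 hairpins against PLKO on the control diet.

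Endothelial genes moved in the 2 diet comparisons with EGR2 hairpins too, and these values stand beside the results of those comparisons. Of 16 endothelial markers, 15 were tested, and 12 fell with shEGR2_40.9 and 13 with shEGR2_38.9 on the PA-rich diet, with median changes of -1.05 and -1.26, whereas 0 passed with PLKO and with shGAL. Their summed linear signal was 4380 to 5040 on the PA-rich diet and 9900 to 12000 on the control diet with shEGR2_40.9. With shEGR2_38.9 it was 5470 to 6310 on the PA-rich diet and 12900 to 16200 on the control diet. With shGAL it was 5120 to 6790 on the PA-rich diet and 4970 to 6510 on the control diet, and with PLKO 3930 to 4950 on the PA-rich diet and 4420 to 5660 on the control diet. Cdh5, the endothelial cadherin, averaged 9.8 on the PA-rich diet and 11.38 on the control diet with shEGR2_40.9. With shEGR2_38.9 it averaged 10.36 on the PA-rich diet and 12.07 on the control diet, and Sox17 was below the level for testing. Lymphatic endothelial markers also fell, 4 of 5 with shEGR2_40.9 (median -2.15) and 5 of 5 with shEGR2_38.9 (median -1.64). With PLKO and with shGAL 0 of 5 passed, and the medians were -0.57 with PLKO and 0.3 with shGAL. Of 10 fibroblast markers 5 were tested, and 3 of them fell with shEGR2_40.9, while 2 fell and 1 rose with shEGR2_38.9. The fibroblast genes Pdgfra, Lum, Dpt, Pi16 and Fap were below the level for testing, and Pdgfra averaged 4.9 to 5.04 in the 8 groups. Of 7 pericyte and smooth muscle markers tested, 0 passed with shEGR2_40.9 and 3 fell with shEGR2_38.9. Of 6 Schwann and glial markers tested, 1 rose and 0 fell with each EGR2 hairpin. The 1 adipocyte marker tested, Fabp4, changed by -1.8 with shEGR2_40.9 and by -1.48 with shEGR2_38.9, and passed with both. Macrophage markers fell too, 2 of 5 with shEGR2_40.9, 3 of 5 with shEGR2_38.9 and 1 of 5 with PLKO, while 0 passed with shGAL. Keratinocyte markers rose in 3 of 14 with shEGR2_38.9, where 13.8% of all genes rose. Their summed linear signal with this hairpin was 64100 to 66500 on the PA-rich diet and 50000 to 62100 on the control diet. The control-diet range includes the array that stood apart. The part of these cell types in the matrix results was not tested, and in such bulk samples fewer cells of a type and less RNA per cell cannot be told apart.

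**Figure D2:**
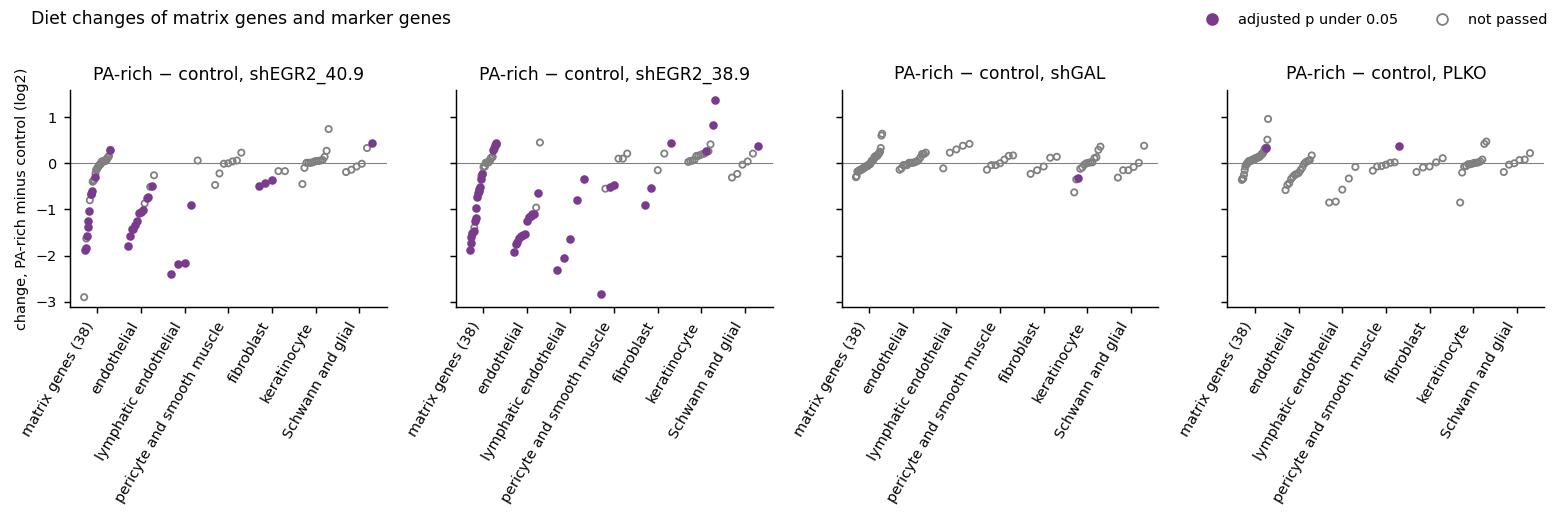
Change on the PA-rich diet (log2, y axis) of each tested matrix gene and of marker genes of 6 cell types, with 1 panel per hairpin. Filled points passed (adjusted p under 0.05) and open points did not. In the 2 EGR2 hairpin panels most endothelial and lymphatic points and part of the matrix points lie below 0. In the shGAL and PLKO panels most points lie near 0, but the lymphatic points with PLKO have a median of -0.57.

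The classes were also set out array by array. For each array, the median deviation of a class from the mean of each gene over all arrays was taken as a description. Over the 6 fibrillar genes it was -0.33 to 0.2 on the PA-rich diet and 0.38 to 1.03 on the control diet with shEGR2_40.9. With shEGR2_38.9 it was -0.35 to -0.18 on the PA-rich diet and 0.17 to 1.19 on the control diet. Over nidogen, perlecan and the 2 multiplexins it was -0.31 to -0.11 on the PA-rich diet and 0.26 to 0.7 on the control diet with shEGR2_40.9, and -0.2 to -0.06 on the PA-rich diet and 0.27 to 1.03 on the control diet with shEGR2_38.9. The diets did not overlap in either class with either EGR2 hairpin, and they overlapped in both classes with shGAL and PLKO. Over the 14 other collagens the deviation stayed between -0.04 and 0.09 in all 24 arrays, and over the 8 laminins between -0.13 and 0.16. Both EGR2 hairpin groups on the control diet had the 2 highest group means in 16 of 38 members (42.1%), against 8.27% of all genes tested. These 16 were 5 of 6 fibrillar genes, 2 of 4 collagen IV genes, 3 of 8 laminins, 3 of 4 of the nidogen, perlecan and multiplexin genes, 2 of 14 other collagens, and Fn1 but not Sparc.

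**Figure D3:**
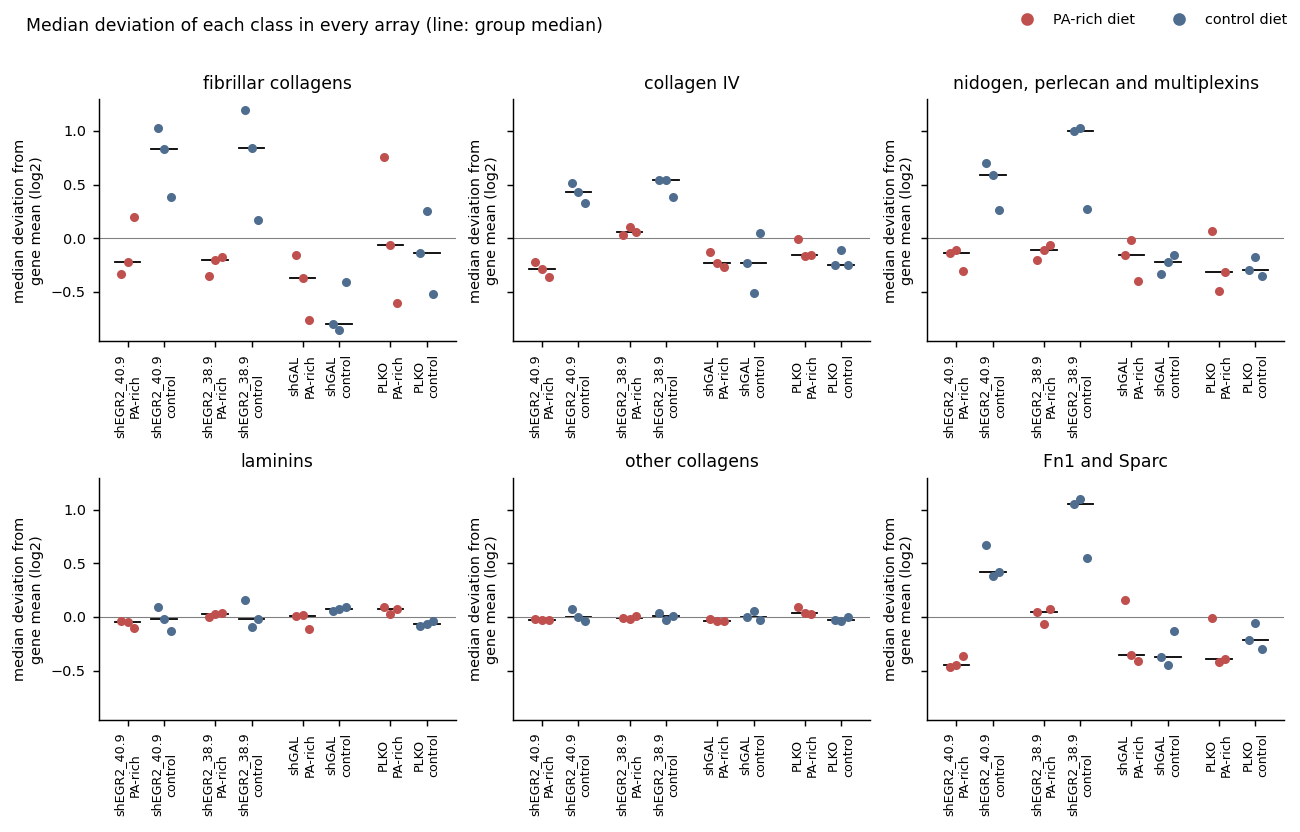
Median deviation of each class from its genes' means (log2, y axis) in every array, by hairpin and diet. Points are arrays and bars group medians. Fibrillar collagens, collagen IV, the nidogen group and the pair Fn1 and Sparc are raised in the EGR2 hairpin control-diet arrays, and laminins and other collagens stay near 0.

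Nid1 encodes nidogen 1, the linker between the laminin and the collagen IV networks, and it had the lowest adjusted p of all members in both EGR2 diet comparisons. With shEGR2_40.9 it measured 7.74, 7.84 and 7.68 on the PA-rich diet, against 9.75, 9.37 and 9.76 on the control diet. With shEGR2_38.9 it measured 8.41, 8.45 and 8.6 on the PA-rich diet, against 10.31, 10.5 and 10.26 on the control diet. In both hairpins every PA-rich array lay far below every control-diet array, and the change was -1.87 ± 0.13 (SE) in each (adjusted p = 9.2e-09 and 2.35e-09). The 6 differences within a shared scan batch ran from -2.08 to -1.53. With shGAL it measured 8.52, 8.06 and 7.99 on the PA-rich diet and 8.04, 7.91 and 8.24 on the control diet, and with PLKO 8.38, 7.94 and 8.02 on the PA-rich diet and 8.49, 8.51 and 8.35 on the control diet. The diets overlapped with shGAL, PLKO control-diet arrays lay above the shGAL control-diet arrays, and neither diet change passed (0.13, adjusted p = 0.688, and -0.33, adjusted p = 0.328). The second probe set of Nid1 changed by -2.55 and -2.13 with the EGR2 hairpins, by 0.81 with shGAL and by -0.53 with PLKO.

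Hspg2 encodes perlecan, the heparan sulphate proteoglycan of basement membranes. It measured 8.18, 8.46 and 8.23 on the PA-rich diet and 8.83, 9.01 and 8.82 on the control diet with shEGR2_40.9, and 8.26, 8.39 and 8.35 on the PA-rich diet against 9.38, 9.32 and 8.53 on the control diet with shEGR2_38.9. The PA-rich arrays were the lower ones in both hairpins, and the changes were -0.6 ± 0.16 (adjusted p = 0.0196) and -0.74 ± 0.16 (adjusted p = 0.00153). With only the arrays compared, the call with shEGR2_38.9 was lost (adjusted p = 0.0541). The second perlecan probe set changed by -0.04 and -0.1 only, and with the mean of both the call was lost with shEGR2_40.9. The perlecan call with shEGR2_40.9 was also lost without 3 of its arrays in turn (control-diet replicate 2, PA-rich replicates 1 and 3). Collagen XV (Col15a1), which sits between basement membrane and the fibres below it, measured 7.88, 8.11 and 7.79 on the PA-rich diet and 9.4, 9.53 and 8.57 on the control diet with shEGR2_38.9, a change of -1.24 ± 0.26 (adjusted p = 0.00142). With shEGR2_40.9 it measured 8.33, 8.11 and 7.94 on the PA-rich diet against 9.35, 8.96 and 8.49 on the control diet, again without overlap, but the change of -0.8 ± 0.26 did not pass (adjusted p = 0.0597). Col18a1, whose product is the source of endostatin, did not pass in any diet comparison, with changes from -0.22 to 0.3.

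The bases upstream of Nid1 and Hspg2 are shown because both genes code for linkers of the basement membrane and fell with both hairpins. The letters are the 250 bases before the RefSeq start on build GRCm38.p6, both on the plus strand, at chr13:13437352-13437601 and chr4:137468553-137468802. Capitals mark the GC box GGGCGG on either strand, which occurs 1 time in the first and 5 times in the second.
Nid1: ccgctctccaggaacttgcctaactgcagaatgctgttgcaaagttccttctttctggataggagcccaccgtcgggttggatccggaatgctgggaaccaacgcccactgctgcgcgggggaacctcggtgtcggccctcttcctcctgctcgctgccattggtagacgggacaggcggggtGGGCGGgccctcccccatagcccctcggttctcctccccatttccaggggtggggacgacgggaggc
Hspg2: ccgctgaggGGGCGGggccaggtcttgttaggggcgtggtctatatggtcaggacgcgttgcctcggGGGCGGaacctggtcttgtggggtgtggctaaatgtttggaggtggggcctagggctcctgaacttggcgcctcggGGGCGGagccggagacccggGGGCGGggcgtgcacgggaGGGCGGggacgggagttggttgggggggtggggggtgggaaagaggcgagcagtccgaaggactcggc
Windows of this length were at hand for 40 of the 54 members (44 windows). The GC box was in 24 of the 44 and in 32.7% of 32851 windows of all genes, the CCAAT box (CCAAT) in 15 of 44 and 33.8%, and the TATA box (TATAAA) in 5 of 44 and 12.4%. The AP-1 site TGACTCA was in 1 of 44, that of Col6a1, and in 4.46% of all windows. The EGR site GCGTGGGCG, searched because the hairpins target EGR2, was in 0 of 44 and in 0.536% of all windows. Both strands were read, the GC box and the EGR site can share the letters GGGCG, and a match is a description of letters only.

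The collagen IV genes split by pair. Col4a1 and Col4a2 encode the chains of the common collagen IV trimer, and they lie head to head on chromosome 8 with RefSeq starts 21 bases apart. Col4a2 measured 8.15, 8.39 and 7.97 on the PA-rich diet, against 9.97, 9.61 and 9.64 on the control diet, with shEGR2_40.9. With shEGR2_38.9 it measured 8.54, 8.72 and 8.79 on the PA-rich diet, against 10.34, 10.65 and 9.84 on the control diet. Its partner Col4a1 measured 10.41, 10.43 and 10.22 on the PA-rich diet against 11.86, 11.46 and 11.44 on the control diet with shEGR2_40.9, and 10.8, 10.91 and 10.77 on the PA-rich diet against 12.04, 12.25 and 11.77 on the control diet with shEGR2_38.9. Both chains were lower in every PA-rich array. With shEGR2_40.9 Col4a2 fell by 1.57 ± 0.22 on the log2 scale (adjusted p = 3.86e-05) and Col4a1 fell by 1.24 ± 0.17 (adjusted p = 3.65e-05). With shEGR2_38.9 Col4a2 fell by 1.59 ± 0.22 (adjusted p = 9.61e-06) and Col4a1 fell by 1.19 ± 0.17 (adjusted p = 1.7e-05). With shGAL and PLKO the changes of Col4a2 were 0.15 and -0.15 and those of Col4a1 0.19 and -0.07, and none of the 4 passed.

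Col4a5 and Col4a6, the chains of the collagen IV of smooth muscle and epithelial basement membranes, are also neighbours, on the X chromosome with starts 1343 bases apart. Col4a5 measured 7.37, 7.52 and 7.34 on the PA-rich diet, against 7.13, 6.89 and 6.92 on the control diet, with shEGR2_38.9. Col4a6 measured 8.15, 8.18 and 8.18 on the PA-rich diet against 7.93, 7.72 and 7.88 on the control diet with the same hairpin. Both were thus higher in every PA-rich array, opposite to Col4a1 and Col4a2, by 0.43 ± 0.11 (adjusted p = 0.00851) and 0.32 ± 0.1 (adjusted p = 0.0233). The call for Col4a6 was lost without any of 4 of these 6 arrays (control-diet replicate 2 and the 3 PA-rich arrays), and that for Col4a5 without PA-rich replicate 2. With shEGR2_40.9 neither passed (-0.04 and -0.13). With PLKO the changes were 0.23 and 0.34 and did not pass either, but Col4a6 measured 8.12, 8.31 and 8.07 on the PA-rich diet against 7.73, 7.89 and 7.89 on the control diet, a difference as large as with shEGR2_38.9 and without overlap. The chains Col4a3 and Col4a4, which join Col4a5 in kidney and lung basement membranes, lay below the level for testing, at 5.5 to 6.01 and 5.82 to 6.56 over all arrays.

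Of the 8 laminin chains, 1 fell with shEGR2_40.9, and with shEGR2_38.9 2 fell and 1 rose, where 8.95% and 22.1% of all genes passed in either direction. Lamc1 encodes gamma 1, the chain that most laminins contain. It measured 10.34, 10.26 and 10.26 on the PA-rich diet and 11.09, 10.9 and 10.88 on the control diet with shEGR2_40.9, and 10.49, 10.55 and 10.5 on the PA-rich diet against 11.17, 11.26 and 10.77 on the control diet with shEGR2_38.9. The changes were -0.67 ± 0.1 (adjusted p = 0.000121) and -0.55 ± 0.1 (adjusted p = 0.000354). Its partner beta 1, Lamb1, measured 8.52, 8.74 and 8.75 on the PA-rich diet, against 9.4, 9.3 and 8.85 on the control diet, with shEGR2_38.9, and fell by 0.51 ± 0.13 (adjusted p = 0.00505, and 0.065 in limma with only the arrays compared). With shEGR2_40.9 Lamb1 changed by -0.38 ± 0.13 and did not pass (adjusted p = 0.0623).

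Lama3 encodes alpha 3, a chain of the laminin that anchors epithelia. It measured 11.71, 11.72 and 11.87 on the PA-rich diet, against 11.59, 11.47 and 11.01 on the control diet, with shEGR2_38.9, and rose by 0.41 ± 0.1 (adjusted p = 0.00588). The low control-diet array is the one that stood apart. The call of Lama3 was lost with the mean of its 2 probe sets, and also with only the arrays compared. Its epithelial partner Lamb3 changed by 0.13 with each EGR2 hairpin and did not pass. Lama1, Lama2 and Lamc3 changed by -0.1 to 0.1 with the EGR2 hairpins, and Lamb2 by -0.14 and -0.28, and none of these passed.

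Among the fibrillar collagens Col5a2 had the largest change that passed with either EGR2 hairpin. It encodes the alpha 2 chain of collagen V, which starts and limits the thickness of collagen I fibrils. With shEGR2_40.9 it measured 8.04, 8.17 and 8.45 on the PA-rich diet, against 9.83, 9.62 and 9.39 on the control diet, and it fell by 1.39 ± 0.28 (adjusted p = 0.0019). With shEGR2_38.9 it measured 8.09, 8.26 and 8.33 on the PA-rich diet, against 10.1, 9.99 and 9.79 on the control diet, and it fell by 1.73 ± 0.28 (adjusted p = 7.83e-05). The diets did not overlap in either hairpin, whereas with PLKO the values of 9.17, 8.71 and 7.73 on the PA-rich diet spanned those of 8.49, 8.9 and 7.75 on the control diet. With shGAL it measured 8.28, 7.99 and 7.53 on the PA-rich diet against 7.42, 6.91 and 7.55 on the control diet, a change of 0.64 that did not pass (adjusted p = 0.262). Col5a1, the partner chain, fell with shEGR2_38.9 by 0.65 ± 0.23 (adjusted p = 0.0467), with values of 7.63, 7.7 and 7.86 on the PA-rich diet against 8.71, 8.18 and 8.25 on the control diet. That call was lost in 17 of 32 alternatives, 1 of them the block on hairpin and replicate number, and with shEGR2_40.9 the change of -0.4 did not pass. Col27a1, a chain of cartilage and developing tissues, measured 7.25, 7.21 and 7.24 on the PA-rich diet against 7.66, 7.41 and 7.54 on the control diet with shEGR2_40.9, and 7.4, 7.21 and 7.05 on the PA-rich diet against 7.83, 7.87 and 7.8 on the control diet with shEGR2_38.9. It fell by 0.3 ± 0.09 (adjusted p = 0.0463, lost in 17 of 32 alternatives) and by 0.61 ± 0.09 (adjusted p = 4.26e-05). The second probe set of Col27a1 changed less, by -0.1 with shEGR2_40.9 and by -0.33 with shEGR2_38.9.

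Col1a1 and Col3a1, the major chains of collagens I and III, varied more between the arrays of a group than nearly all other genes. Their within-group SD was 1.0 and 1.41, at rank 7 and rank 2 of 11844 genes, against a median of 0.12 over all genes and 0.13 over the members. With shEGR2_40.9 Col3a1 measured 6.06, 8.32 and 9.11 on the PA-rich diet, against 11.21, 10.83 and 10.15 on the control diet. With PLKO it measured 11.13, 7.88 and 6.12 on the PA-rich diet, against 9.4, 9.57 and 7.14 on the control diet, so that 1 group held both one of the highest and one of the lowest arrays. Its changes of -2.9 ± 0.98 and -1.39 ± 0.98 with the EGR2 hairpins did not pass (adjusted p = 0.0699 and 0.329).

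Col1a1 measured 7.1, 7.94 and 9.17 on the PA-rich diet against 10.35, 9.95 and 8.81 on the control diet with shEGR2_40.9, and 7.24, 8.34 and 7.98 on the PA-rich diet against 10.52, 9.42 and 8.19 on the control diet with shEGR2_38.9. With shGAL it measured 7.69, 7.13 and 6.95 on the PA-rich diet against 6.83, 6.98 and 6.99 on the control diet, and with PLKO 10.33, 8.93 and 6.82 on the PA-rich diet against 7.9, 8.8 and 6.49 on the control diet. The diets overlapped in every hairpin, and no change passed (-1.63 with shEGR2_40.9, -1.52 with shEGR2_38.9, 0.33 with shGAL and 0.96 with PLKO). PLKO PA-rich replicate 1 was the highest of its group in Col1a1, Col3a1, Col5a2, Col5a1 and Col6a1. The second chain of collagen I, Col1a2, lay at 4.94 to 5.26 in all 24 arrays, below the level for testing, so this probe set gives no view of the chain. Col2a1, the cartilage collagen, changed by -0.11 to 0.12 in the 4 diet comparisons.

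**Figure D4:**
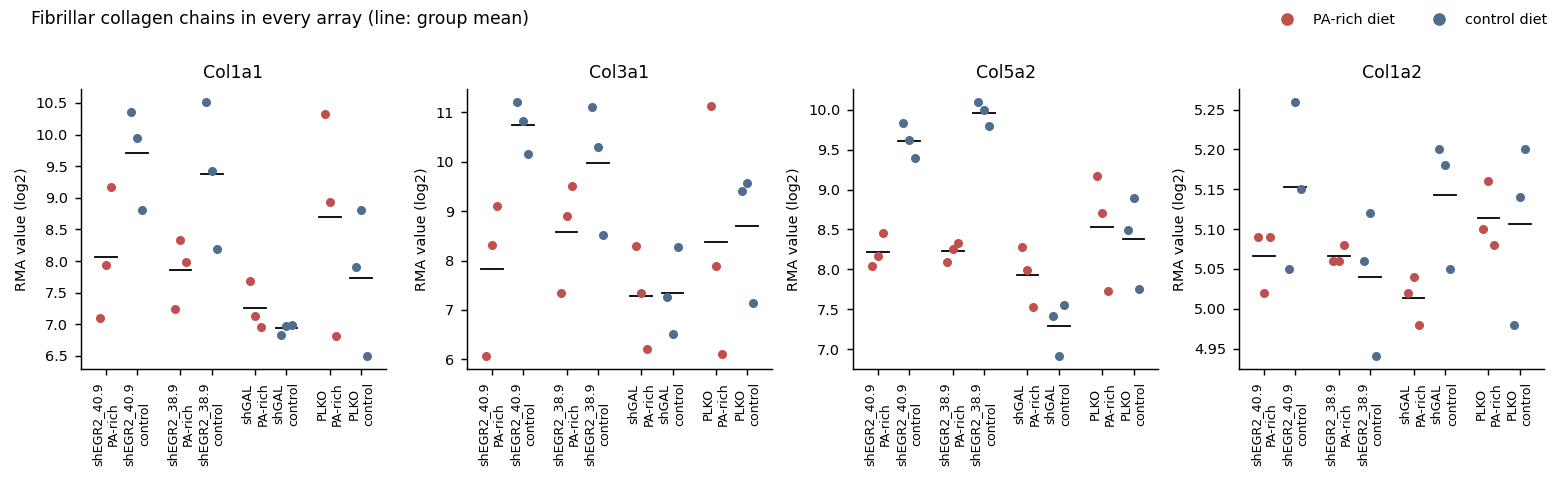
Col1a1, Col3a1, Col5a2 and Col1a2 (log2 RMA value, y axis, scaled per panel) in every array, by hairpin and diet. Points are arrays and bars group means. Col1a1 and Col3a1 spread widely within most groups, Col5a2 separates the diets with both EGR2 hairpins, and Col1a2 stays between 4.94 and 5.26.

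Fibronectin (Fn1), the soluble and fibrillar glycoprotein that binds integrins and collagen, measured 8.16, 8.12 and 8.32 on the PA-rich diet, against 10.34, 9.85 and 9.94 on the control diet, with shEGR2_40.9. With shEGR2_38.9 it measured 9.16, 8.97 and 9.16 on the PA-rich diet, against 10.9, 11.03 and 9.93 on the control diet. Every PA-rich array lay below every control-diet array, and Fn1 fell by 1.84 ± 0.26 (adjusted p = 5.37e-05) and by 1.52 ± 0.26 (adjusted p = 0.000161). With shGAL and PLKO the changes were 0.25 and -0.25, and neither passed. Sparc, a collagen-binding protein of remodelling tissue, was bright and nearly level, at 12.24 to 12.67 over all arrays. It measured 12.41, 12.37 and 12.46 on the PA-rich diet against 12.67, 12.64 and 12.63 on the control diet with shEGR2_38.9, and fell by 0.24 ± 0.06 (adjusted p = 0.00902, and 0.0918 in limma with only the arrays compared). With shEGR2_40.9 the change was 0.01.

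**Figure D5:**
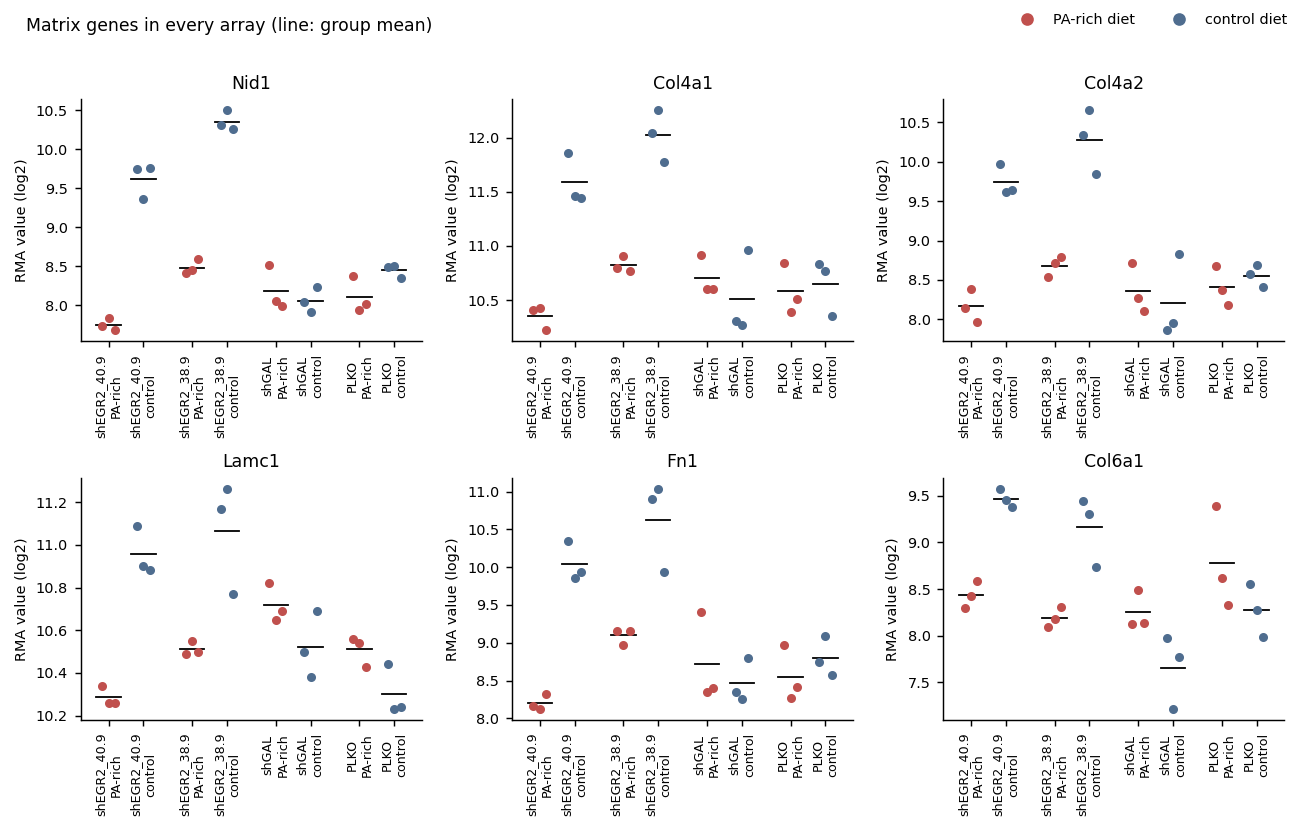
Nid1, Col4a1, Col4a2, Lamc1, Fn1 and Col6a1 (log2 RMA value, y axis, scaled per panel) in every array, by hairpin and diet. Points are arrays and bars group means. With each EGR2 hairpin the PA-rich arrays lie below the control-diet arrays in all 6 genes, and the control-diet arrays with these hairpins are the highest or among the highest.

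Of the 14 other collagens, 3 passed with shEGR2_40.9 (8.95% of all genes) and 5 with shEGR2_38.9 (22.1%). Col6a1, a chain of the beaded filaments around cells and basement membranes, measured 8.3, 8.43 and 8.59 on the PA-rich diet and 9.57, 9.45 and 9.38 on the control diet with shEGR2_40.9. With shEGR2_38.9 it measured 8.09, 8.18 and 8.31 on the PA-rich diet, against 9.44, 9.31 and 8.74 on the control diet. The change was -1.03 ± 0.22 (adjusted p = 0.00326) and -0.97 ± 0.22 (adjusted p = 0.00243), while with shGAL and PLKO it was 0.6 and 0.51 and did not pass. Col6a2, its neighbour on chromosome 10 and partner in the collagen VI trimer, fell with shEGR2_38.9, by 0.35 ± 0.11 (adjusted p = 0.0231; -0.22 with shEGR2_40.9, which did not pass), and measured 7.26, 7.12 and 7.41 on the PA-rich diet against 7.53, 7.67 and 7.63 on the control diet. The call of Col6a2 was lost in 5 of 31 alternatives. The third chain, Col6a3, had a mean below the level for testing, and its arrays ran from 5.14 to 7.18.

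Col23a1, a transmembrane collagen, measured 7.4, 7.44 and 7.63 on the PA-rich diet, against 8.43, 8.01 and 7.99 on the control diet, with shEGR2_40.9. With shEGR2_38.9 it measured 7.5, 7.66 and 7.4 on the PA-rich diet, against 8.94, 9.2 and 8.81 on the control diet. It fell by 0.66 ± 0.14 (adjusted p = 0.00245) and by 1.46 ± 0.14 (adjusted p = 5.47e-08). Its 2 further probe sets also changed below 0, by -0.54 and -1.09 with shEGR2_40.9 and by -1.0 and -1.86 with shEGR2_38.9.

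Col8a1, a short-chain collagen of vessel walls and of the cornea, was the only member that passed with PLKO. It measured 9.35, 9.22 and 9.18 on the PA-rich diet, against 8.84, 8.96 and 8.99 on the control diet, with PLKO, and rose by 0.33 ± 0.07 (adjusted p = 0.0141). The call was lost with the block on hairpin and replicate number, in the fit of these 6 arrays alone, and without replicate 1 of either diet. With shEGR2_38.9 Col8a1 measured 9.15, 9.18 and 9.05 on the PA-rich diet against 8.73, 8.73 and 8.75 on the control diet, and rose by 0.39 ± 0.07 (adjusted p = 0.000172), while with shEGR2_40.9 and shGAL it changed by -0.07 and 0.15. Its other probe sets changed by 0.46 and 0.25 with PLKO and by 0.36 and 0.38 with shGAL. They changed by 0.54 and 0.58 with shEGR2_38.9 and by -0.29 and -0.17 with shEGR2_40.9. Col16a1, a fibril-associated collagen, rose by 0.28 with shEGR2_38.9 (adjusted p = 0.0326, lost in 5 of 32 alternatives). Col7a1, which forms the anchoring fibrils under the epidermis, rose by 0.29 with shEGR2_40.9 (adjusted p = 0.00848, lost without control-diet replicate 1). The hemidesmosome collagen Col17a1 changed by -0.09 to 0.14 in the 4 diet comparisons. The 16 members below the level for testing changed by -0.89 to 0.09 with shEGR2_40.9 and by -0.58 to 0.16 with shEGR2_38.9.

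Set against PLKO, the groups with EGR2 hairpins differed in 19 members on the control diet and in 1 among PA-rich arrays. On the control diet 18 members were higher and 1 lower with the mean of the 2 hairpins, where 25.2% of all genes passed in either direction, 10.8% higher and 14.5% lower. These control-diet arrays are also those of the diet comparisons above, so the 2 kinds of result are not independent. Leaving out the array that stood apart gave 18 higher and 0 lower, and the share of all genes in that fit is not given here. By class 9 of 16 basement membrane genes, 4 of 6 fibrillar genes, 3 of 14 other collagens and both Fn1 and Sparc were higher. All 6 EGR2 hairpin arrays lay above all 3 PLKO arrays in 16 members (7.67% of all genes), and all lay below in 0 (9.6% of all genes). On the PA-rich diet 0 members were higher and 1, Col8a1, was lower, where 0.794% of all genes were higher and 1.11% passed in either direction. Col8a1 (-0.26 ± 0.06, adjusted p = 0.025) did not pass with scan batch as a block, nor without PLKO PA-rich replicate 1 or 2, shEGR2_40.9 PA-rich replicate 2 or shEGR2_38.9 PA-rich replicate 3. On that diet all 6 EGR2 hairpin arrays lay above the PLKO arrays in 1 member (4.73% of all genes) and below them in 4 (4.43%). Each hairpin was also taken alone. With shEGR2_40.9 against PLKO 13 members were higher on the control diet (12.1% of all genes passed) and 0 lower, and among PA-rich arrays 0 were higher and 1, Col8a1, lower (4.02%). With shEGR2_38.9 the counts were 15 higher and 1 lower on the control diet (30.4%), and among PA-rich arrays 0 (0.625%), where limma gave 7 at an unadjusted p under 0.05. On the control diet 14 of 15 endothelial markers tested were higher as well, with a median of 1.35, as were 5 of 5 lymphatic, 4 of 7 pericyte and smooth muscle, and 3 of 5 macrophage markers. Of 5 fibroblast markers tested 2 were higher and 1 lower, and the 1 adipocyte marker tested, Fabp4, was higher by 1.98. The part of these cells was not tested.

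On the control diet the largest of these differences that passed was that of Col1a1, at 1.81 ± 0.6 (adjusted p = 0.0313), with 1 of 6 EGR2 hairpin arrays inside the range of PLKO. It was lost with a block on scan batch, and also without any of 5 arrays (PLKO control-diet replicates 1 and 3, shEGR2_40.9 control-diet replicates 1 and 2, and shEGR2_38.9 control-diet replicate 1), with changes from 1.19 to 2.34. Nid1 averaged 1.54 ± 0.12 higher (adjusted p = 4.51e-09), Fn1 1.53 ± 0.23, Col4a2 1.45 ± 0.19, Col5a2 1.41 ± 0.24, Col4a1 1.16 ± 0.15 and Col6a1 1.04 ± 0.19. On the PA-rich diet none of these 6 genes passed, and for 4 of them the mean over both hairpins hides values on either side of PLKO. Nid1 averaged 7.75 with shEGR2_40.9 and 8.48 with shEGR2_38.9, against 8.12 with PLKO, so that all shEGR2_40.9 arrays lay below and all shEGR2_38.9 arrays above the PLKO arrays (changes -0.36 and 0.37, adjusted p = 0.145 and 0.311). Fn1 averaged 8.2 with shEGR2_40.9 and 9.1 with shEGR2_38.9, against 8.55 with PLKO. Col4a1 averaged 10.35 with shEGR2_40.9 and 10.83 with shEGR2_38.9, against 10.58 with PLKO, and Col4a2 changed by -0.24 with shEGR2_40.9 and by 0.28 with shEGR2_38.9. Col5a2 and Col6a1 averaged below PLKO with both, by -0.32 and -0.34 with shEGR2_40.9 and by -0.31 and -0.59 with shEGR2_38.9. Col15a1 (0.96), Col23a1 (0.95), Hspg2 (0.81), Lamc1 (0.71), Lamb1 (0.55), Col18a1 (0.49), Col27a1 (0.46), Col12a1 (0.36), Lamb2 (0.33) and Sparc (0.23) were also higher on the control diet. The second probe sets of Col27a1 and Hspg2 differed less, by 0.08 and 0.23. The call of Col12a1 was lost without PLKO control-diet replicate 3, and that of Lamb2 without PLKO control-diet replicate 1. With a block on scan batch the calls of Lamb2, Col5a1 (0.58) and Col16a1 (-0.22) were lost, and that of Col16a1 in 23 of 31 alternatives.

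The diet effect itself was tested for a difference between hairpins. With the EGR2 hairpins it was below that with PLKO in 13 members and above it in 0, where 9.74% of all genes passed in either direction, 4.57% below and 5.18% above. The difference went past 1 on the log2 scale for Col5a2 (-1.72 ± 0.34), Nid1 (-1.54 ± 0.16), Col6a1 (-1.51 ± 0.27), Col4a2 (-1.43 ± 0.26), Fn1 (-1.43 ± 0.32), Col4a1 (-1.14 ± 0.21) and Col15a1 (-1.07 ± 0.32). All 4 of the nidogen, perlecan and multiplexin genes were among the 13, with 2 of 6 fibrillar genes, 2 of 4 collagen IV genes, 1 of 8 laminins, 3 of 14 other collagens and Fn1. Of those 4, Nid1 passed in every alternative, whereas Col15a1 was lost in 12 of 32, Col18a1 without PLKO control-diet replicate 3 or PLKO PA-rich replicate 1, and Hspg2 without PLKO PA-rich replicate 1. The largest difference, that of Col1a1 (-2.54 ± 0.85), did not pass (adjusted p = 0.0616). Each EGR2 hairpin was also set against PLKO alone. With shEGR2_40.9 the diet effect was below that with PLKO in 8 members and above it in 0 (4.16% of all genes passed). Only 1 of the 4 nidogen, perlecan and multiplexin genes was among these. With shEGR2_38.9 it was below in 14 members and above in 0 (13.4% of all genes passed), with all 4 of those genes among them. Against shGAL the diet effect with the EGR2 hairpins was below in 11 members and above in 4 (12% of all genes passed, 6.68% below and 5.28% above). These tests share the EGR2 hairpin arrays, so they are not independent of each other. Between shGAL and PLKO 1 member differed (1.33% of all genes), Col4a6, by -0.64 ± 0.14 (adjusted p = 0.0242), and this call was lost with the block on hairpin and replicate number and without any of 5 of the 12 arrays.

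Few members differed between shGAL and PLKO. On the control diet 4 of 5 lymphatic markers were lower with shGAL (median -0.75), 2 of 5 macrophage markers were lower and 1 higher, and 1 of 15 endothelial markers was higher, and their part was not tested. On the control diet 3 members were higher and 1 was lower, where 17% of all genes passed (7.15% higher and 9.84% lower). Among PA-rich arrays 0 were higher and 3 lower, where 12.4% passed (7.6% higher and 4.77% lower). Without the array that stood apart, which entered only through the shared spread, the control-diet counts were 4 higher and 3 lower. The share of all genes in that fit is not given here. Col5a2 was the lower one, at 7.42, 6.91 and 7.55 with shGAL on the control diet, against 8.49, 8.9 and 7.75 with PLKO, a change of -1.09 ± 0.28 (adjusted p = 0.0093). That call was lost without PLKO control-diet replicate 2 or shGAL control-diet replicate 2. The shGAL arrays lay above the PLKO arrays in 10 members (14.7% of all genes) and below them in 6 (17.2%) on the control diet, and in 1 (17%) and 9 (21%) on the PA-rich diet. Lama3 (0.39), Col18a1 (0.38) and the cartilage chain Col9a3 (0.3) were the higher ones. On the PA-rich diet Col16a1 (-0.38), Col4a6 (-0.37) and Col8a1 (-0.25) were lower with shGAL than with PLKO. Of these 6 calls, those of Lama3 and Col8a1 were lost with a block on scan batch, and those of Lama3, Col9a3, Col4a6 and Col8a1 without 1 array or another.

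Genes that make, link and bind these proteins were taken from lists chosen with earlier results of these data known. Of 24 tested genes of collagen processing and crosslinking, 2 rose and 3 fell on the PA-rich diet with shEGR2_40.9, 3 rose and 6 fell with shEGR2_38.9, and 0 passed with shGAL and with PLKO. Here and in the next lists the share of all genes that passed was 8.95% with shEGR2_40.9, 22.1% with shEGR2_38.9, and 25.2% for the EGR2 hairpins against PLKO on the control diet. Pxdn, the peroxidase that forms the sulfilimine crosslink of collagen IV, fell by 1.57 ± 0.25 with shEGR2_40.9 and by 1.69 ± 0.25 with shEGR2_38.9. The transglutaminase Tgm2 fell by 0.87 with shEGR2_40.9 and by 1.51 with shEGR2_38.9, and the lysyl hydroxylase Plod1 fell by 0.69 with shEGR2_40.9 and by 1.16 with shEGR2_38.9. The lysyl hydroxylase of telopeptides, Plod2, rose by 0.6 with shEGR2_40.9 and by 0.33 with shEGR2_38.9, and P3h4 rose by 0.37 with shEGR2_40.9 and by 0.46 with shEGR2_38.9. On the control diet 7 genes of the list were higher and 1 lower with the EGR2 hairpins than with PLKO, 8 of 24 beside 25.2% of all genes, led by Pxdn (1.78 ± 0.22), Tgm2 (1.45), Plod1 (1.34) and the lysyl oxidase Loxl2 (0.7), while P3h4 was at -0.31. The collagen chaperone Serpinh1 was at 0.45.

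Of 17 tested receptors of collagen and laminin, 0 rose and 1 fell with shEGR2_40.9, near the 8.95% of all genes, and 5 rose and 2 fell with shEGR2_38.9 on the PA-rich diet. The integrin chain Itgb3 fell by 0.82 with shEGR2_40.9 and by 1.07 with shEGR2_38.9, and was 1.15 ± 0.16 higher with the EGR2 hairpins than with PLKO on the control diet. With shEGR2_38.9 the collagen receptor Ddr2 fell by 0.54, whereas Itgb5, Bcam, Itga2 and Itgav rose by 0.65, 0.38, 0.37 and 0.37. Of 17 tested matrix proteins outside the members, 1 rose and 5 fell with shEGR2_40.9, and 2 rose and 5 fell with shEGR2_38.9. The elastic fibre protein Fbln5 changed by -1.08 with shEGR2_40.9 and -1.24 with shEGR2_38.9, the proteoglycan Bgn by -1.66 with shEGR2_40.9 and -1.24 with shEGR2_38.9, and Thbs2 by -0.65 with shEGR2_40.9 and -0.74 with shEGR2_38.9, and all 6 passed. Dcn, a proteoglycan that also stands in the fibroblast list, went opposite ways, at -0.43 with shEGR2_40.9 and 0.44 with shEGR2_38.9. With shEGR2_38.9 it measured 11.81, 11.8 and 11.83 on the PA-rich diet, against 11.63, 11.48 and 11.01 on the control diet. The lowest of these values is from the array that stood apart. Tnc was the 1 gene of these lists that passed with PLKO, with a rise of 0.52 ± 0.1 (adjusted p = 0.00752), and Bcam the 1 gene with shGAL (-0.32, adjusted p = 0.0492).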

How the data were processed

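The values are log2 expression values that the authors deposited, made by RMA with affy (version not given in the sources used here), per the submitters' processing notes. Amplified, biotin-labelled cDNA was hybridised, per the labels' protocols. They hold no counts, so depth is unknown and the number of arrays limits precision. Of 45141 probe sets 28898 named 1 gene in the platform annotation. A gene was read from its probe set of highest mean over the 24 arrays, and probe sets below the 40th percentile (6.27) were left out. No 2 arrays were identical.

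One limma 3.58.1 model (R 4.3.3) of 8 group means gave moderated two-sided tests with 16 residual and 6.21 prior degrees of freedom. P-values were adjusted by Benjamini and Hochberg over 11844 genes per comparison, and the code was tested on simulated data. Errors of changes are standard errors. The labels' scan batch pairs same-numbered arrays of the 2 diets of a hairpin. Residuals of the 12 pairs correlated by -0.03 to 0.24, 7 of them above 0.1. Alternatives were blocks on scan batch (fixed or random) and on hairpin with number, 2 other filters, renewed quantile normalization, the mean of all probe sets, only the arrays compared, and each array left out.

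Values in every array are given, per class, for up to 4 members with the largest change past the threshold in a diet comparison, and for Fn1 and Sparc; partner chains are given beside them. Lists name up to 4 genes by size, and further ones were named after their values were seen. Members and lists were chosen with earlier results of these data known. Promoter letters are from RefSeq.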

Additional observations from a re-analysis of the deposited data

Results flagged for a closer look

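The diet effect (PA-rich minus control) differed between hairpins in 29 tests of members, given here as differences on the log2 scale with limma's adjusted p. With the EGR2 hairpins minus PLKO it was -1.54 for Nid1 (3.69e-06), -0.81 for Lamc1 (0.000175), -1.51 for Col6a1 (0.000743), -1.14 for Col4a1 (0.000924), -1.43 for Col4a2 (0.00108), -1.72 for Col5a2 (0.00207), -0.55 for Col27a1 (0.00298) and -1.43 for Fn1 (0.00541). It was -0.69 for Col23a1 (0.00818), -0.78 for Hspg2 (0.012), -0.42 for Col18a1 (0.0138), -1.07 for Col15a1 (0.036) and -0.42 for Col6a2 (0.0472). With the EGR2 hairpins minus shGAL it was -2.0 for Nid1 (1.83e-07), -1.21 for Col23a1 (2.58e-05), -1.41 for Col4a1 (6.63e-05), -1.73 for Col4a2 (0.000105), -2.2 for Col5a2 (0.000122), -0.81 for Lamc1 (0.000122), -1.93 for Fn1 (0.000243) and -1.6 for Col6a1 (0.000261). It was -0.51 for Col27a1 (0.00421), -0.45 for Col6a2 (0.0303) and -0.64 for Hspg2 (0.0351). In the other direction it was 0.35 for Col7a1 (0.00775), 0.46 for Col16a1 (0.00951), 0.4 for Col4a6 (0.037) and 0.4 for Lama3 (0.0423). With shGAL minus PLKO it was -0.64 for Col4a6 (0.0242). The calls of Col15a1 and Col6a2 against PLKO and of Lama3, Col4a6 and Hspg2 against shGAL were each lost in 10 or more of 31 or 32 alternatives.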

How the results depend on the processing

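No member call changed sign in an alternative, and 55 of 88 calls were kept in every alternative that could test them. The counts below are of members, and the share of all genes that passed under each alternative is not given here. With the replicate block on scan batch the count of EGR2 hairpins against PLKO on the PA-rich diet was 0 in place of 1. With the replicate block on hairpin and number the counts of the diet with PLKO and of shGAL minus PLKO in the diet effect were each 0 in place of 1. Under the 2 blocks the diet counts were 14 and 13 with shEGR2_40.9 (11 without) and 20 and 21 with shEGR2_38.9 (20 without). With only the arrays compared the diet with PLKO gave 0, and with the mean of all probe sets it gave 2 and the diet with shGAL 1. Leaving out each array in turn gave 0 to 1 (PLKO), 9 to 15 (shEGR2_40.9), 16 to 20 (shEGR2_38.9) and 0 (shGAL) for the diet. Against PLKO it gave 15 to 19 (control diet) and 0 to 1 (PA-rich diet) for the EGR2 hairpins, and 2 to 7 (control diet) and 1 to 6 (PA-rich diet) for shGAL. For the diet effect it gave 9 to 15 (EGR2 hairpins minus PLKO), 0 to 1 (shGAL minus PLKO) and 11 to 17 (EGR2 hairpins minus shGAL). The 7 arose without the array that stood apart, the 6 without PLKO PA-rich replicate 3, the 2 without PLKO control-diet replicate 2 and the 1 without shGAL PA-rich replicate 1. Whether the spread between animals is covered is not known, since the series calls the 3 arrays of a group technical replicates and does not state the animals.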
